A study of Mus musculus with 10 samples.

Results

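The 10 genes described here encode the parts of Klotho, vitamin D and phosphate handling that sit in the kidney itself. They are the Klotho gene *Kl*, the parathyroid hormone receptor gene *Pth1r*, the vitamin D receptor gene *Vdr*, the vitamin D enzyme genes *Cyp27b1* and *Cyp24a1*, the phosphate transporter genes *Slc34a1*, *Slc34a3*, *Slc20a1* and *Slc20a2*, and the scaffold gene *Slc9a3r1*. They were chosen by name and function, with earlier results of these data known. All 10 were present among the 21792 genes with a value in each of 10 libraries. The libraries came from male C57BL/6 wild-type mice, 8 weeks old when the model was started, with 1 library per mouse and no pooling. The 4 sham mice (B607, B634, B636 and H249) were given PBS alone. The 6 AAN mice (A483, B614, B630, B639, B642 and B666) had aristolochic acid nephropathy, a model of tubular injury and fibrosis that was started with 1 intraperitoneal dose of 5 mg/kg aristolochic acid. The cortex of kidney was taken at day 28 in both groups, as whole tissue that holds tubules, vessels, glomeruli and infiltrating cells. Levels are FPKM, which counts fragments relative to the length of a gene and to the size of the library, so levels can be compared between genes per length.

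As background, Klotho is a membrane protein of the distal convoluted tubule, and to a lesser degree of the proximal tubule, that joins with FGF receptors to form the receptor for the bone hormone FGF23. FGF23 and parathyroid hormone both act on the proximal tubule to withdraw the phosphate transporters NaPi-IIa (*Slc34a1*) and NaPi-IIc (*Slc34a3*) from the brush border, so that more phosphate is lost in urine. The proximal tubule is also where CYP27B1 makes active vitamin D, the ligand of the vitamin D receptor, and CYP24A1 breaks it down. FGF23 is known to lower the former enzyme and raise the latter, and the receptor itself turns on *Cyp24a1*.

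Depth was 15.8 to 17.5 M fragments for the sham libraries and 13.4 to 16.5 M for the AAN libraries, M being the mega prefix. A pair of libraries stood apart from the rest of their groups by transcript length. In sham B607, genes with transcripts over 8 kb had a median log2 ratio of 0.73, taken against the rest of the sham group, and genes under 1 kb one of -0.30. In AAN B614 the values were 0.29 and -0.44. Mitochondrial genes took 39.5% to 61.4% of all FPKM in the sham group and 21.4% to 55.0% of it in the AAN group. The median log2 fold change of all 17129 genes tested was 0.75, AAN against sham. After rescaling by the median of ratios between mice this median was 0.06. Each change is therefore given as deposited, relative to the 0.75, and after rescaling, and with and without both B607 and B614 where this matters.

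**Figure D1:**
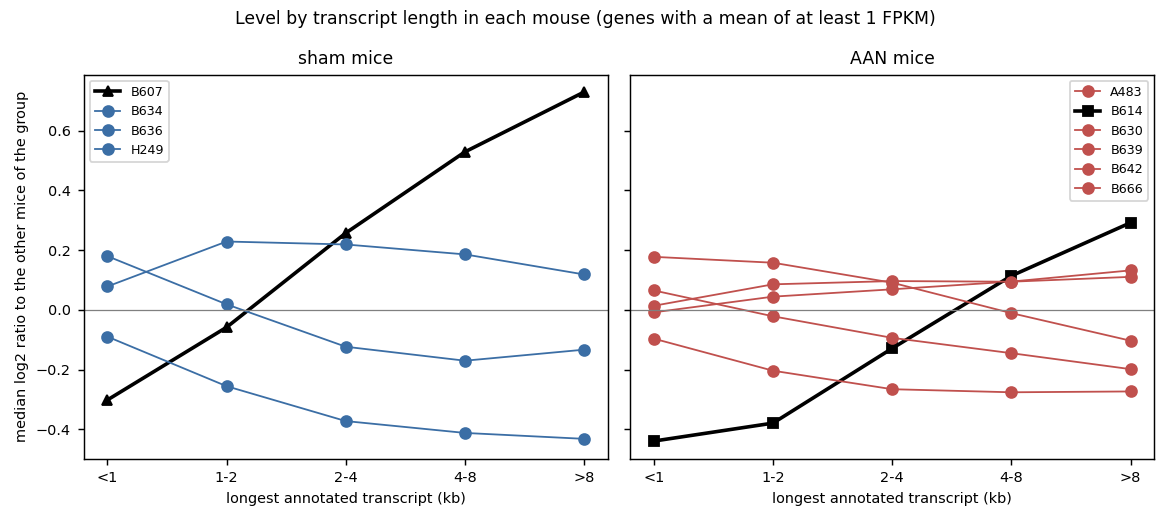
Median log2 ratio of each mouse against the rest of its group (y axis) for genes sorted by the length of their longest annotated transcript in kb (x axis), with sham mice on the left and AAN mice on the right. The black lines are sham B607, which runs from -0.30 to 0.73, and AAN B614, which runs from -0.44 to 0.29.

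A change had to pass 2 limits, an adjusted p of at most 0.05 by limma on log2(FPKM + 0.1) with Benjamini-Hochberg adjustment over all genes tested, and a change of 2-fold or more in either direction. Of the 10 genes, 2 were higher in AAN mice (*Cyp24a1* and *Slc20a1*) and 3 were lower (*Kl*, *Slc34a1* and *Slc34a3*). Over all genes tested, 35.8% passed both limits as higher and 3.43% as lower. The 2 higher members were fewer than the background share and the 3 lower ones more, a comparison of few genes that was not tested. The count of lower members ran from 2 to 6 over the alternatives run. Without both B607 and B614 the counts were again 2 higher and 3 lower, against backgrounds of 39.8% and 3.67%. After rescaling by the median of ratios, 1 member was higher (*Cyp24a1*) and 6 were lower, with *Vdr*, *Pth1r* and *Slc9a3r1* added, against backgrounds of 19.0% and 10.5%. The median log2 fold change of the 10 genes was -0.35 as deposited and -1.11 after rescaling, where the medians of all genes were 0.75 and 0.06. In this cortex tissue, fewer cells of a type and less RNA per cell cannot be told apart in any value below.

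**Figure D2:**
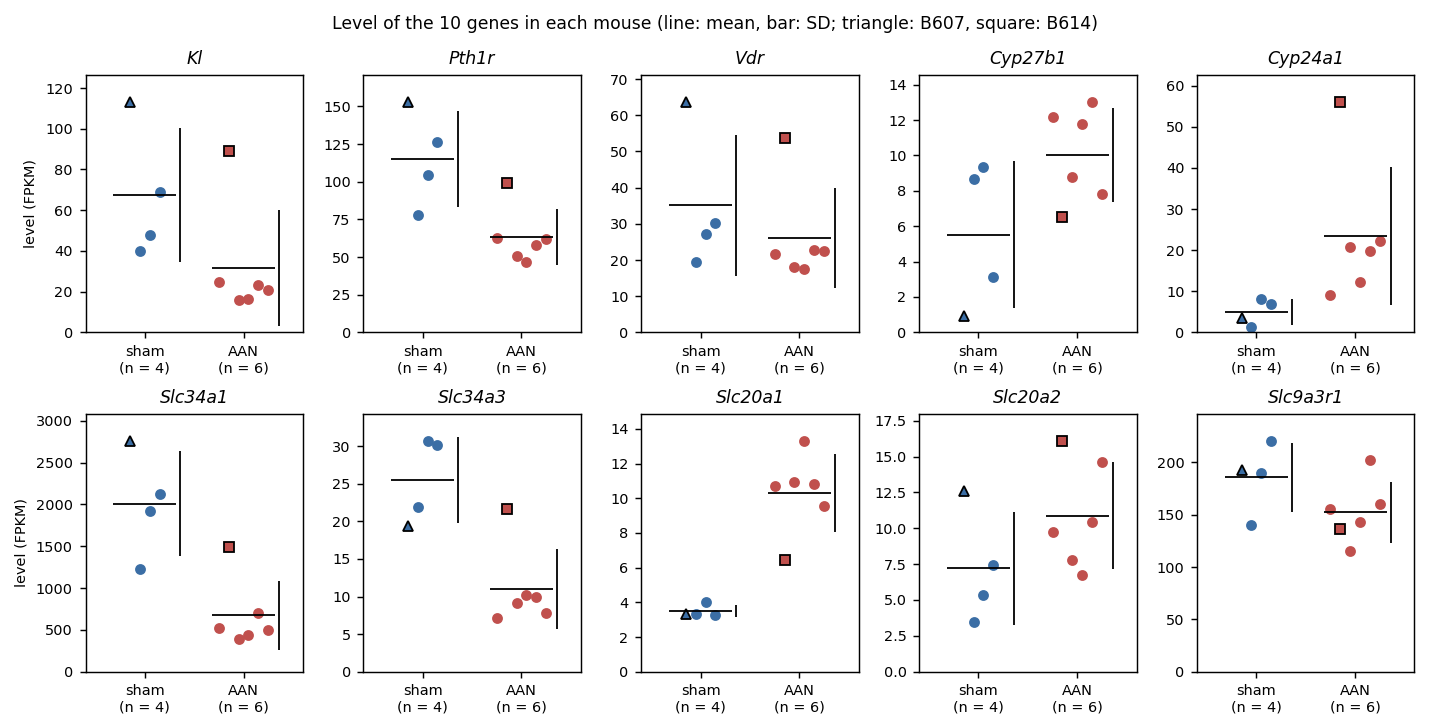
Level in FPKM (y axis, linear, from 0) of each of the 10 genes in the 4 sham mice (blue) and the 6 AAN mice (red), with the mean as a horizontal line and the SD as a vertical bar. The triangle is B607 and the square is B614. The groups do not overlap for *Cyp24a1* and *Slc20a1*, and for *Kl*, *Pth1r*, *Slc34a1* and *Slc34a3* all AAN mice but B614 lie below the lowest sham mouse.

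**Figure D3:**
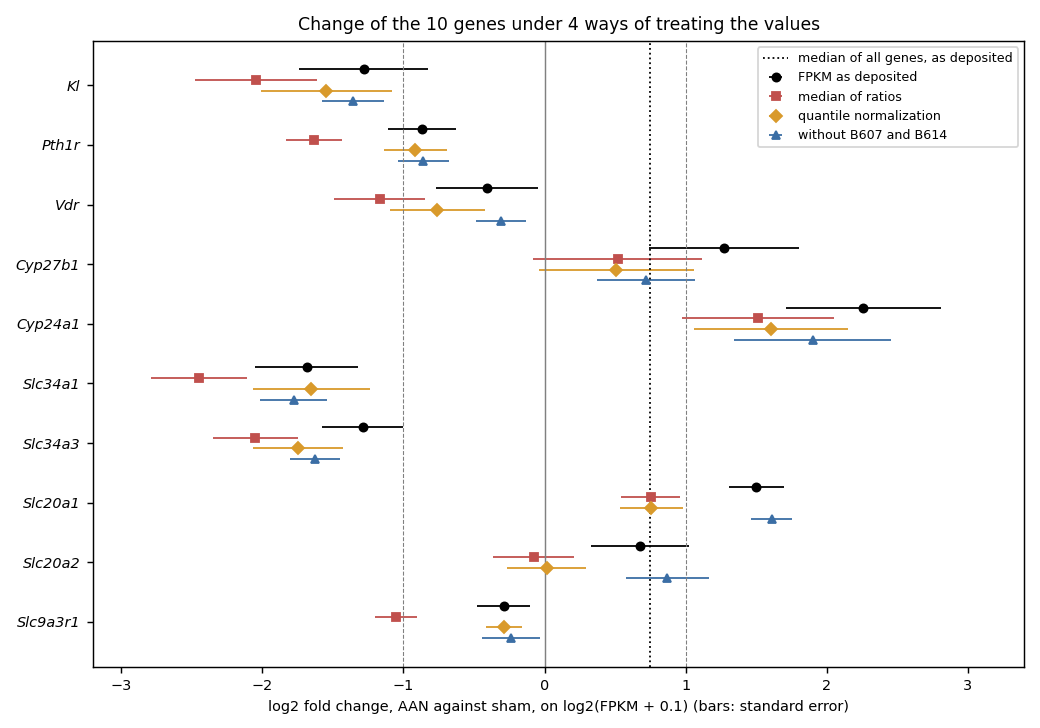
Log2 fold change, AAN against sham, on log2(FPKM + 0.1) (x axis) for each gene (rows), with bars of 1 standard error, under 4 treatments of the values shown by colour and shape. The dashed lines are the 2-fold limits and the dotted line is the median of all genes as deposited, 0.75. Rescaling by the median of ratios moves every gene to the left, and *Slc20a2* goes from 0.68 to -0.08.

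The stretches before the start sites of 4 members are shown because these genes took different courses: *Kl* and *Slc34a1* were lower in AAN mice, and *Vdr* and *Cyp27b1* did not pass both limits on the deposited values. They come from RefSeq on GRCm38.p6, which held 8 of the 10 genes and had no entry for *Cyp24a1* and *Slc20a2*. Each covers up to 250 bases before the RefSeq start, with annotated exon bases removed, and reads 5′ to 3′ on the gene's own strand. Capitals mark 6 short motifs on either strand: the nuclear receptor half-site AGGTCA and its variant AGTTCA, the HNF1 half-site GTTAAT, the GC box GGGCGG, the E-box CACGTG and the CRE half-site TGACG. The windows lie at chr5:150952357-150952606 (+) for *Kl*, chr13:55399398-55399647 (+) for *Slc34a1*, chr15:97908311-97908546 (-) for *Vdr* and chr10:127047996-127048245 (+) for *Cyp27b1*. Those of *Slc34a1* and *Vdr* are intronic in GENCODE, which has longer transcripts of both genes, and the other two are upstream of the gene.
Kl: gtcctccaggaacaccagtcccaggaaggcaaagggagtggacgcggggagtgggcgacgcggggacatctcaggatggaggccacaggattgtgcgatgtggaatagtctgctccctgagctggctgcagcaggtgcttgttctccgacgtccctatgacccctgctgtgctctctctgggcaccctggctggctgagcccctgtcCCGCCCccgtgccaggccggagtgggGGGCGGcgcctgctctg
Slc34a1: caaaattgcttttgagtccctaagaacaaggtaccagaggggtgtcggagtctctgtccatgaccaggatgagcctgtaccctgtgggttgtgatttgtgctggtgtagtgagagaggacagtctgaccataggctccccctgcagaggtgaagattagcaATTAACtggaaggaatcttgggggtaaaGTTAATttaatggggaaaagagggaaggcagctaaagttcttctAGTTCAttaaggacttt
Vdr: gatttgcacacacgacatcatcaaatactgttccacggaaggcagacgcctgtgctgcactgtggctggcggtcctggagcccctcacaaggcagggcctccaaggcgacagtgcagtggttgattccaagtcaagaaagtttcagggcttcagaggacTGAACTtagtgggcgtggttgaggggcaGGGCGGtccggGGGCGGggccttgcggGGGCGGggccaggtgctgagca
Cyp27b1: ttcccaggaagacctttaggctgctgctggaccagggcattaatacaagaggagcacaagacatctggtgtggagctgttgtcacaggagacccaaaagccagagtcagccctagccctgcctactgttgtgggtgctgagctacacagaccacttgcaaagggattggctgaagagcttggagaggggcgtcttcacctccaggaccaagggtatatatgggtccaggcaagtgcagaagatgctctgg
Counted from the start, the *Kl* window held GC boxes with first bases at -17 and, on the other strand, at -43. The *Slc34a1* window held HNF1 half-sites at -61 and, reversed, at -89, and the variant half-site at -17. The *Vdr* window held 3 GC boxes (at -63, -52 and -36) and a reversed variant half-site at -91, and the *Cyp27b1* window held none of the 6 motifs. Counted over the windows of 250 bases before removal of exons, 7 of the 11 windows of the 8 members held a GC box, 3 the half-site AGGTCA, 2 its variant, 3 the CRE half-site, 1 the HNF1 half-site and 1 the E-box. Among all 32851 windows of that length the shares were 32.7%, 14.02%, 11.8%, 17.8%, 6.43% and 6.02%, in that order. A match here is a description of letters and not a binding site.

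*Kl*, the gene of the FGF23 co-receptor (ENSMUSG00000058488, GRCm38 chr5:150952607-150993817, + strand), was lower in AAN mice. Its level was 113, 39.8, 48.0 and 69.0 FPKM in sham B607, B634, B636 and H249. It was 24.7, 89.0, 16.0, 16.2, 23.1 and 20.7 FPKM in AAN A483, B614, B630, B639, B642 and B666. Every AAN mouse but B614 was thus below the lowest sham mouse, and B607 and B614, the mice with the length pattern, were the highest of their groups. The means were 67.5 ± 32.8 FPKM (SD, n = 4) and 31.6 ± 28.3 FPKM (SD, n = 6), 2.13-fold lower in AAN mice. The log2 fold change was -1.28 (SE 0.46, 95% interval -2.28 to -0.28, limma adjusted p = 0.0291), which is -2.03 relative to the median of all genes and -2.05 after rescaling (adjusted p = 0.00225). Without both B607 and B614 it was -1.36 with a smaller SE of 0.22 (adjusted p = 0.000479). The call on the deposited values was narrow: it was lost when sham B607 (-0.995, adjusted p = 0.0907) or H249 was left out, or AAN B630, B639, B642 or B666, or when the B-tagged mice stood alone, with limma adjusted p-values of 0.0501 to 0.0973.

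*Pth1r*, which encodes the receptor for parathyroid hormone (ENSMUSG00000032492, GRCm38 chr9:110722085-110747145, - strand), had a lower level in AAN mice by less than 2-fold. The sham values were 153, 78.0, 104 and 126 FPKM for B607, B634, B636 and H249. The AAN values were 63.0, 99.1, 50.6, 46.5, 58.0 and 62.1 FPKM for A483, B614, B630, B639, B642 and B666. Again 5 of 6 AAN mice lay under the lowest sham mouse and B614 among the sham mice. The means were 115 ± 31.9 FPKM (SD, n = 4) and 63.2 ± 18.7 FPKM (SD, n = 6). The log2 fold change of -0.87 (SE 0.24, limma adjusted p = 0.00816) passed the p limit but not the fold limit. Relative to the median of all genes it was -1.62, and after rescaling it was -1.63 and passed both limits (adjusted p = 4.36e-05). The fold limit was also passed without sham B634 (-1.04), without AAN B614 (-1.01) and with the mice scaled to the same total (-1.13).

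*Vdr*, which encodes the nuclear receptor for active vitamin D (ENSMUSG00000022479, GRCm38 chr15:97854425-97910630, - strand), gave no call on the deposited values. It stood at 63.6, 19.5, 27.0 and 30.3 FPKM in B607, B634, B636 and H249, and at 21.7, 53.8, 17.96, 17.4, 22.8 and 22.6 FPKM in A483, B614, B630, B639, B642 and B666. The groups overlapped, with B607 and B614 far above the others and only 2 of 6 AAN mice below the lowest sham mouse. The means were 35.1 ± 19.5 FPKM (SD, n = 4) and 26.0 ± 13.8 FPKM (SD, n = 6). The change on the log2 scale was -0.41 (SE 0.36, 95% interval -1.20 to 0.38, limma adjusted p = 0.341), or -1.15 relative to the median of all genes. It was -1.17 and passed both limits after rescaling (adjusted p = 0.011), and it was -0.31 without both B607 and B614 (adjusted p = 0.147).

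Of the vitamin D enzyme genes, 1 passed both limits. *Cyp24a1*, whose product inactivates vitamin D (ENSMUSG00000038567, GRCm38 chr2:170482708-170497145, - strand), was higher in AAN mice without overlap. Its sham values were 3.56, 1.28, 8.09 and 6.92 FPKM in B607, B634, B636 and H249. Its AAN values were 9.19, 56.0, 20.7, 12.2, 19.9 and 22.1 FPKM in A483, B614, B630, B639, B642 and B666. All 6 AAN mice exceeded the highest sham mouse, A483 by a narrow margin and B614 by the widest. The means were 4.96 ± 3.12 FPKM (SD, n = 4) and 23.3 ± 16.8 FPKM (SD, n = 6), a 4.71-fold difference. On the log2 scale the change was 2.26 (SE 0.55, 95% interval 1.06 to 3.45, limma adjusted p = 0.00373). It was 1.51 relative to the median of all genes, 1.51 after rescaling (adjusted p = 0.0379) and 1.90 without both B607 and B614 (adjusted p = 0.0131). The gene has 1 annotated transcript, and its lowest value stands for 72 fragments.

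*Cyp27b1*, whose product makes active vitamin D (ENSMUSG00000006724, GRCm38 chr10:127048250-127053006, + strand), gave no call. It read 0.925, 8.69, 9.37 and 3.13 FPKM in B607, B634, B636 and H249, a range of 10.1-fold within sham mice. In A483, B614, B630, B639, B642 and B666 it read 12.2, 6.53, 8.77, 11.8, 13.0 and 7.84 FPKM, a range of 1.99-fold. Of the AAN mice 3 were above the highest sham mouse, and the lowest value, in B607, stands for about 39.6 fragments. The means were 5.53 ± 4.15 FPKM (SD, n = 4) and 10.02 ± 2.66 FPKM (SD, n = 6). AAN against sham, the log2 fold change was 1.27 (SE 0.53, 95% interval 0.11 to 2.43, limma adjusted p = 0.0557). It was 0.52 relative to the median of all genes and 0.52 after rescaling (adjusted p = 0.509). It passed both limits without sham B634 (1.64, adjusted p = 0.0262) or B636 (1.67, adjusted p = 0.0198) and was 0.60 without B607. The ratio of *Cyp24a1* to *Cyp27b1* within a mouse ran from 0.147 in B634 to 3.85 in B607 among sham mice and from 0.753 in A483 to 8.57 in B614 among AAN mice. These ranges overlapped, and the log2 difference of the pair was higher in AAN mice by 0.99 (SE 1.11), which did not pass the exact two-sided permutation test (p = 0.381, n = 4 and 6). It ranged from 0.093 without B634 to 1.597 without B607 when 1 mouse was left out.

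*Slc34a1*, which encodes NaPi-IIa, the main phosphate transporter of the proximal tubule brush border (ENSMUSG00000021490, GRCm38 chr13:55398187-55415592, + strand), was the most abundant member and was lower in AAN mice. Its sham levels were 2754, 1231, 1924 and 2124 FPKM in B607, B634, B636 and H249. Its AAN levels were 518, 1487, 390.2, 437, 708 and 502 FPKM in A483, B614, B630, B639, B642 and B666. The sham mice lay above every AAN mouse except B614, whose level fell between B634 and B636. The means were 2008 ± 627 FPKM (SD, n = 4) and 674 ± 413 FPKM (SD, n = 6), 2.98-fold lower in AAN mice. The log2 fold change was -1.68 (SE 0.36, 95% interval -2.48 to -0.89, limma adjusted p = 0.00182). Relative to the median of all genes it was -2.43, and after rescaling -2.45 (adjusted p = 0.000121). Without both B607 and B614 it was -1.78 (adjusted p = 0.000148).

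*Slc34a3*, which encodes NaPi-IIc (ENSMUSG00000006469, GRCm38 chr2:25228898-25234364, - strand), was lower too. The sham mice had 19.4, 22.0, 30.6 and 30.1 FPKM (B607, B634, B636 and H249). The AAN mice had 7.11, 21.6, 9.19, 10.2, 9.94 and 7.76 FPKM (A483, B614, B630, B639, B642 and B666). Once more B614 alone reached the sham range, while B607 was here the lowest sham mouse. The change on the log2 scale was -1.29 (SE 0.29, 95% interval -1.91 to -0.67, limma adjusted p = 0.00212), -2.04 relative to the median of all genes, -2.05 after rescaling (adjusted p = 0.000196) and -1.63 without both B607 and B614 (adjusted p = 3.63e-05). The group means were 25.5 ± 5.72 FPKM (SD, n = 4) and 10.97 ± 5.35 FPKM (SD, n = 6).

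*Slc20a1*, which encodes PiT-1, a phosphate transporter found in most cell types (ENSMUSG00000027397, GRCm38 chr2:129198764-129211616, + strand), was higher in AAN mice. In B607, B634, B636 and H249 it was 3.34, 3.32, 4.04 and 3.29 FPKM, and in A483, B614, B630, B639, B642 and B666 it was 10.7, 6.41, 10.9, 13.3, 10.9 and 9.55 FPKM. The groups did not overlap, and the sham mice were within 1.23-fold of each other, the narrowest range of the 10 genes. The means were 3.50 ± 0.364 FPKM (SD, n = 4) and 10.3 ± 2.25 FPKM (SD, n = 6). On the log2 scale the change was 1.502 (SE 0.19, 95% interval 1.08 to 1.92, limma adjusted p = 4.1e-05), which is 0.75 relative to the median of all genes. After rescaling it was 0.75 (adjusted p = 0.0113) and after quantile normalization 0.76 (adjusted p = 0.0176), both under the fold limit.

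*Slc20a2*, which encodes the related PiT-2 (ENSMUSG00000037656, GRCm38 chr8:22476788-22569612, + strand), gave no call. Its sham values were 12.6, 3.46, 5.33 and 7.43 FPKM (B607, B634, B636 and H249), and its AAN values were 9.77, 16.1, 7.76, 6.71, 10.5 and 14.6 FPKM (A483, B614, B630, B639, B642 and B666). The groups overlapped, with 2 of 6 AAN mice above the highest sham mouse. Its change of 0.68 on the log2 scale (SE 0.35, limma adjusted p = 0.108) was close to the median of all genes, and it turned to -0.08 after rescaling (adjusted p = 0.847). Without both B607 and B614 it was 0.87 (adjusted p = 0.0248), under the fold limit.

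*Slc9a3r1*, whose product NHERF1 anchors NaPi-IIa and the parathyroid hormone receptor at the membrane (ENSMUSG00000020733, GRCm38 chr11:115163341-115181181, + strand), varied little between groups on the deposited values. It was at 192, 140.3, 189.9 and 220.1 FPKM in B607, B634, B636 and H249. It was at 156, 136, 115, 143, 203 and 161 FPKM in A483, B614, B630, B639, B642 and B666. The groups overlapped, and 2 of 6 AAN mice were below the lowest sham mouse. AAN against sham, the log2 fold change was -0.29 (SE 0.19, 95% interval -0.70 to 0.12, limma adjusted p = 0.201). Relative to the median of all genes it was -1.04, and after rescaling it was -1.05 and passed both limits (adjusted p = 0.000157).

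The 2 non-overlapping members, *Cyp24a1* and *Slc20a1*, compare with 40.3% of all genes tested that lay wholly higher in AAN mice. None of the 10 lay wholly lower, against 3.25% of all genes. On the level scale the order of group means in sham mice was *Slc34a1*, *Slc9a3r1*, *Pth1r*, *Kl*, *Vdr*, *Slc34a3*, *Slc20a2*, *Cyp27b1*, *Cyp24a1* and *Slc20a1*. In that order only *Slc34a1* and *Slc9a3r1*, and *Slc34a3* and *Slc20a2*, were neighbours whose ranges over the sham mice did not overlap. In AAN mice the first 5 kept their places, and *Cyp24a1*, *Slc34a3*, *Slc20a2*, *Slc20a1* and *Cyp27b1* followed. There the ranges of *Slc34a1* and *Slc9a3r1*, and of *Slc9a3r1* and *Pth1r*, were the only neighbouring ones that did not overlap. Some exonic bases are shared with other genes: 545 of *Slc34a1* with *Pfn3*, 280 of *Slc20a1* with *Gm4430*, 95 of *Pth1r* with *Myl3*, 95 of *Slc20a2* with *Smim19* and 83 of *Cyp24a1* with *Pfdn4*. *Slc20a1* also overlaps *9830144P21Rik*, which was not analysed here. How fragments in these stretches were counted is not given in the sources used here, so the 5 values carry that uncertainty. *Pfn3*, *Myl3* and *Gm4430* had at most 0.457, 0.189 and 1.05 FPKM in any mouse, whereas *Smim19* had 3.25 to 17.3 FPKM and *Pfdn4* 1.63 to 5.87 FPKM.

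Taken as a set with the intestinal and lung-type transporter gene *Slc34a2*, the 5 sodium-phosphate transporter genes summed to 1259.8 to 2789.5 FPKM in sham mice and 427 to 1536 FPKM in AAN mice, with B614 the highest AAN mouse. *Slc34a1* made up 98.1% ± 0.438 of that sum in sham mice (SD, n = 4) and 93.6% ± 2.04 in AAN mice (SD, n = 6), and its ranges of 97.7% to 98.7% and 91.4% to 96.8% did not overlap. The share of *Slc20a1* ran between 0.120% and 0.264% in the sham group and between 0.418% and 2.81% in the AAN group. That of *Slc20a2* was 0.271% to 0.452% and 1.05% to 2.68%, and that of *Slc34a2* 0.00771% to 0.0269% and 0.332% to 2.05%. For these 3 genes the share did not overlap between the groups, while that of *Slc34a3* overlapped, at 0.694% to 1.74% and 1.29% to 2.16%. As *Slc34a1* made up most of the sum, a lower level of it raises the other shares even where their own levels do not change. By level *Slc20a2* overlapped between the groups. *Slc20a1* and *Slc34a2* lay wholly higher in AAN mice, as did 40.3% of all genes tested.

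A factor that scales a whole mouse drops out of differences of log2(FPKM + 0.1) within that mouse, apart from the pseudocount. The effect of quantile normalization does not drop out. Of these differences 7 were compared by an exact permutation test (two-sided, all 210 ways to divide the mice, smallest p 0.00476). The genes and marker lists in them were chosen with earlier results of these data known, which the p-values do not take into account. *Pth1r* against the mean of a 12-gene proximal tubule list was higher in AAN mice by 1.503 (SE 0.16, exact p = 0.00476, adjusted p over the 7 = 0.0167), with 6 of 6 AAN mice above every sham mouse. The values ran from -1.39 to -0.97 in sham mice and from -0.20 to 0.75 in AAN mice, so the level of *Pth1r* was lower by less than the list mean was. Against the median of the list, over all the mice, the difference was 0.79 (exact permutation test, adjusted p = 0.0333). With the list mean it was 1.41 without B634, 1.43 without A483, 1.51 without B639 and 1.46 without B666. The exact adjusted p-values in these runs were 0.0556 to 0.0625 and did not pass. Fewer mice allow fewer splits, yet other runs of the same size kept the call. Their exact adjusted p-values were 0.0417 without B607, B636 or H249, 0.0278 without B614 or B630, and 0.037 without B642. What the lost calls rested on was not tested. *Slc34a1* against the same mean was higher by 0.69 (SE 0.18, exact p = 0.00476, adjusted p = 0.0167), again in 6 of 6 AAN mice. This second difference turned with the summary, since against the median of the list it was -0.03 (exact permutation test, adjusted p = 0.976).

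*Kl* against the mean of a 7-gene distal convoluted tubule list was lower in AAN mice by -0.76 (SE 0.22, exact p = 0.00952, adjusted p = 0.0222). The list was *Slc12a3*, *Pvalb*, *Trpm6*, *Klhl3*, *Trpm7*, *Wnk4* and *Tmem52b*, and how far each is particular to that segment was not tested. The call was lost when any 1 of 7 mice was left out. It was kept without AAN B614 (exact permutation test, adjusted p = 0.0278), B630 or B642 (0.037 each). All 6 AAN mice, at 0.79 to 1.81, lay under the lowest sham mouse at 1.84, B614 by the smallest margin. Against the median of that list the difference was -0.02 (adjusted p = 0.976), and after quantile normalization it was -0.47 (adjusted p = 0.167), both by the exact permutation test. *Slc9a3r1* against *Slc34a1* was higher by 1.40 (SE 0.33, exact p = 0.0333, adjusted p = 0.0583): 5 AAN mice were at -1.80 to -1.61, above all sham mice at -3.84 to -3.13, and B614 was at -3.45. Without B614 this difference was 1.69 and passed the limit (exact permutation test, adjusted p = 0.0278). *Slc34a1* against *Slc34a3* (-0.40, SE 0.34, exact p = 0.252) and *Slc20a1* against *Slc20a2* (0.83, SE 0.53, exact p = 0.152) did not pass, so whether the members of either transporter pair changed unequally is not resolved with 4 and 6 mice.

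**Figure D4:**
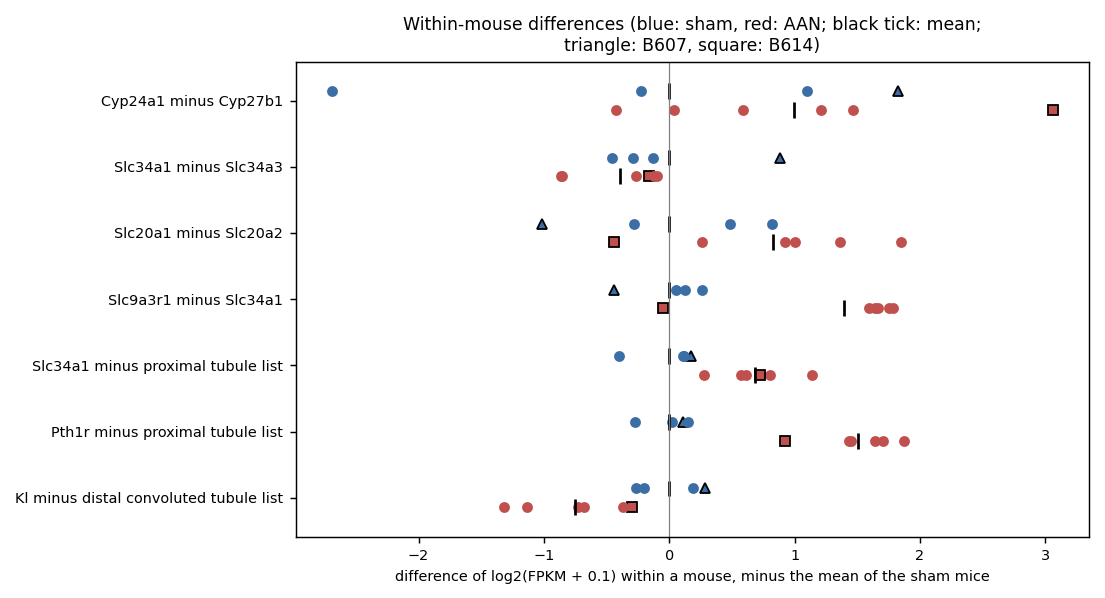
Difference of log2(FPKM + 0.1) within each mouse (x axis), minus the mean of the sham mice, for 7 pairs of genes or of a gene and the mean of a marker list (rows). Blue points are sham mice, red points AAN mice and black ticks group means, with B607 as a triangle and B614 as a square. The groups do not overlap in the lowest 3 rows, and in the row of *Slc9a3r1* minus *Slc34a1* only B614 lies among the sham mice.

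The other genes of the pathway were taken as 8 lists of 49 genes, of which 44 were matched and 43 tested. These lists too were chosen with earlier results of these data known. *Fgf23*, *Klb*, *Gprc6a*, *Phex* and *Ankh* were not analysed here, and *Pth2r* was below the level filter. Over the 43 genes, 13 were higher and 4 lower past both limits on the deposited values, against 35.8% and 3.43% of all genes, and the median log2 fold change was 0.51 where that of all genes was 0.75. After rescaling the counts were 7 and 7, against 19.0% and 10.5% of all genes, and the median was -0.16, where that of all genes was 0.06. The share called higher was thus not above that of all genes. The share called lower was above it, both as deposited and after rescaling, a comparison of few genes that was not tested. Genes called below with no value after rescaling kept their call under it, unless said otherwise.

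Of the 4 FGF receptor genes, some of whose products pair with Klotho to bind FGF23, none passed both limits on the deposited values. *Fgfr1* (0.79), *Fgfr2* (0.92) and *Fgfr4* (-0.40) passed the p limit by limma and not the fold limit, and *Fgfr3* (-0.13) passed neither. *Fgfr4*, the most abundant of them, was lower past both limits after rescaling and after quantile normalization, and *Fgfr3* after the latter. Among 3 genes of proteases known to shed Klotho from the membrane, *Adam10* and *Adam17* were higher and *Bace1* gave no call (0.26, limma adjusted p = 0.407). *Adam10* went from 4.05 ± 4.27 FPKM in sham mice to 16.0 ± 3.03 FPKM in AAN mice, a log2 fold change of 2.82 (SE 0.68, limma adjusted p = 0.00362). The sham values of this gene were uneven, at 9.32, 0.577, 0.575 and 5.72 FPKM in B607, B634, B636 and H249. *Adam17* went from 2.40 ± 0.545 to 7.25 ± 0.940 FPKM, a log2 fold change of 1.57 (SE 0.18, limma adjusted p = 1.35e-05) that fell to 0.83 after rescaling, under the fold limit.

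Of 7 genes for vitamin D uptake, 25-hydroxylation and receptor partners, 2 were lower and 1 higher. *Lrp2*, which encodes megalin, the receptor that takes filtered vitamin D with its carrier into proximal tubule cells, was at 189, 46.1, 71.0 and 96.2 FPKM in B607, B634, B636 and H249. In A483, B614, B630, B639, B642 and B666 it was at 21.3, 70.0, 13.5, 14.9, 24.8 and 25.4 FPKM, so that B614 alone reached the sham range. Its log2 fold change was -1.87 (SE 0.47, limma adjusted p = 0.00447). *Cubn*, the gene of megalin's partner cubilin, changed by -1.15 (SE 0.37, limma adjusted p = 0.0186), from 23.7 ± 10.7 to 10.9 ± 6.38 FPKM. *Gc*, the gene of the vitamin D carrier itself, was higher by 1.63 (SE 0.31, limma adjusted p = 0.000748), from 27.4 ± 15.2 to 79.9 ± 24.7 FPKM, and by 0.87 after rescaling, under the fold limit. *Cyp27a1* and *Cyp2r1*, whose products add the 25-hydroxyl group, gave no call over all the mice. Without both B607 and B614 *Cyp27a1* was higher past both limits (1.11, limma adjusted p = 0.000341).

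Among 7 phosphate transporters and scaffold partners, *Slc34a2*, the gene of NaPi-IIb, had the largest change of the pathway. It was at 0.296, 0.339, 0.151 and 0.512 FPKM in B607, B634, B636 and H249. It was at 5.80, 5.09, 8.74, 5.71, 4.99 and 10.8 FPKM in A483, B614, B630, B639, B642 and B666. Every AAN mouse, B614 included, was far above every sham mouse, with a log2 fold change of 4.04 (SE 0.29, limma adjusted p = 4.82e-07) and of 3.39 after rescaling. The scaffold genes *Pdzk1* (146.5 ± 39.9 to 64.8 ± 27.0 FPKM, log2 fold change -1.23, SE 0.30, limma adjusted p = 0.004) and *Pdzd3* (43.5 ± 10.5 to 19.5 ± 6.20 FPKM, -1.17, SE 0.23, limma adjusted p = 0.00103) were lower. For *Pdzd3* all 6 AAN mice lay under the lowest sham mouse. The phosphate exporter gene *Xpr1* and the scaffold genes *Slc9a3r2* and *Ezr* gave no call, and *Slc9a3*, the gene of a sodium-proton exchanger, was lower past both limits after rescaling (-1.51, limma adjusted p = 0.0254) and after quantile normalization (-1.49, limma adjusted p = 0.0374).

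Of the 3 tested genes of the parathyroid hormone axis, *Pthlh* was higher past both limits, at a mean under 1 FPKM in each group, and not after rescaling. Without both B607 and B614 *Pthlh* did not pass the p limit (1.18, limma adjusted p = 0.0599). The calcium-sensing receptor gene *Casr* gave no call (-0.46, limma adjusted p = 0.592). Of 7 genes of distal calcium reabsorption, which vitamin D and Klotho are known to support, *Trpv6*, an entry channel, and *Atp2b1*, a plasma membrane calcium pump, were higher. *Trpv6* rose from 0.283 to 1.13 FPKM (log2 fold change 1.64, SE 0.24, limma adjusted p = 0.000131) and *Atp2b1* from 5.23 to 13.8 FPKM (1.43, SE 0.19, limma adjusted p = 6.4e-05). The change of *Trpv6* was 0.39 after quantile normalization and did not pass (limma adjusted p = 0.24). That of *Atp2b1* was 0.68 after rescaling, under the fold limit. *Calb1*, *Trpv5*, *Slc8a1* and *Atp2b4* gave no call, and *S100g* was lower after rescaling only.

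Of 5 regulators of phosphate and mineralization, *Stc2*, the gene of a secreted glycoprotein of the stanniocalcin family, was higher, from 0.496 ± 0.181 to 3.78 ± 1.08 FPKM (log2 fold change 2.70, SE 0.30, limma adjusted p = 1.25e-05). *Stc1*, *Enpp1*, *Galnt3* and *Fam20c* did not pass. *Enpp1* was higher past both limits without both B607 and B614 (1.41, limma adjusted p = 0.0389). Of 7 ERK feedback genes, which FGF receptors and many other receptors induce, 5 were higher: *Egr1* (0.537 to 8.505 FPKM, log2 fold change 3.69, limma adjusted p = 6.57e-07), *Spry1* (2.26 to 11.9 FPKM, 2.25, 0.000675), *Etv4* (0.244 to 1.31 FPKM, 1.98, 0.000111), *Dusp6* and *Spry2*. Over all genes tested 35.8% were higher. After rescaling *Egr1*, *Spry1* and *Etv4* still passed and *Dusp6* and *Spry2* did not, against 19.0% of all genes. *Etv4* did not pass after quantile normalization either (0.74, under the fold limit). *Spry4* and *Etv5* did not pass in either.

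**Figure D5:**
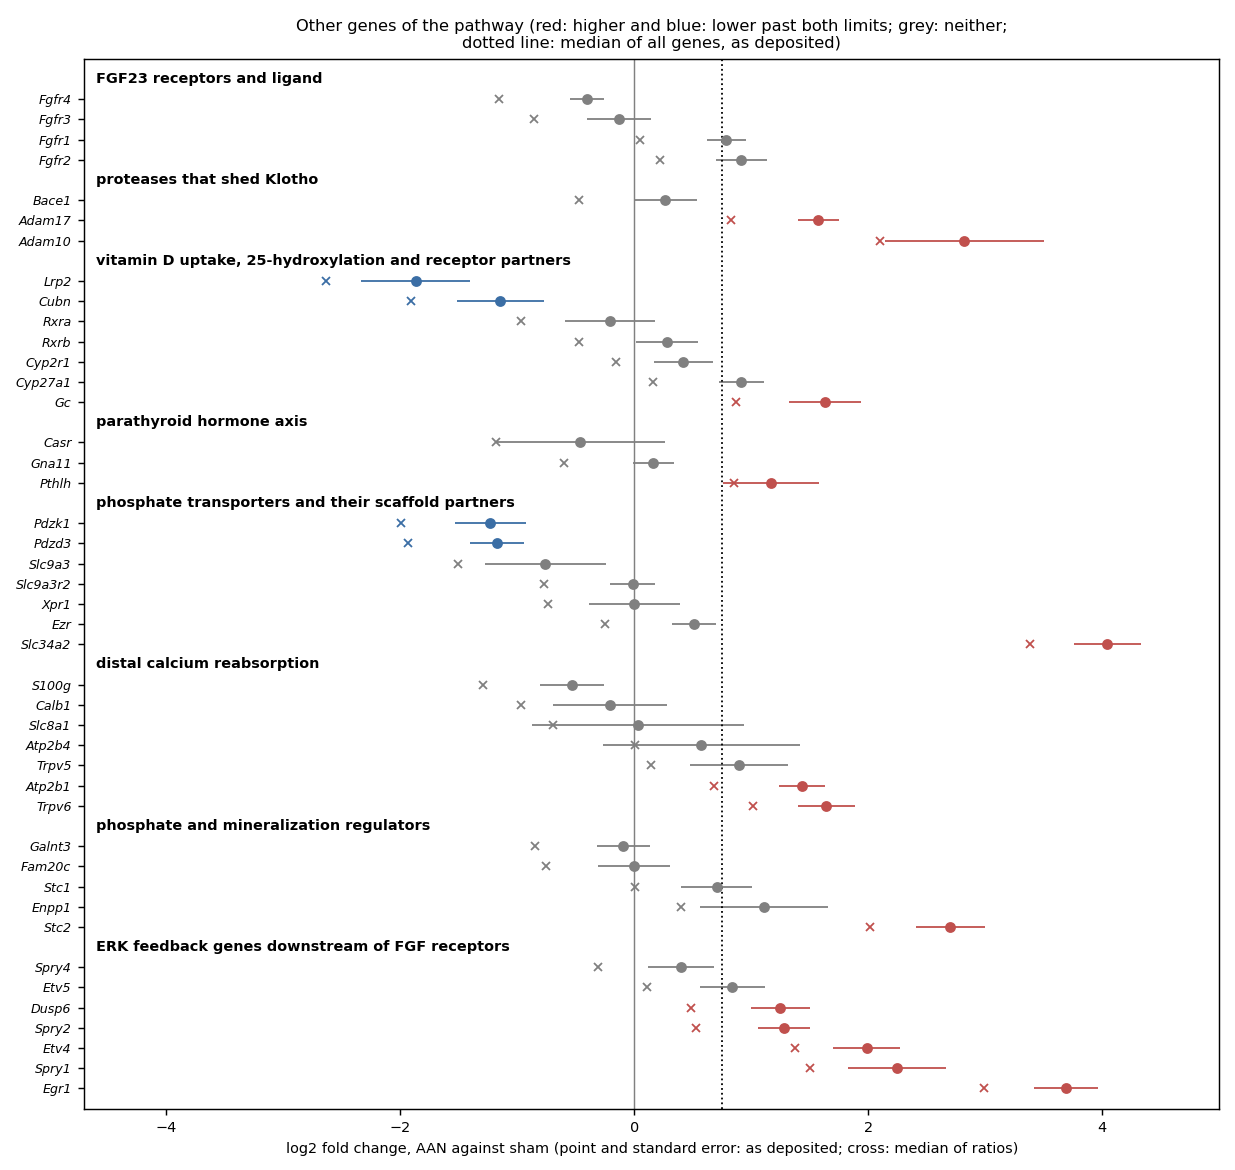
Log2 fold change, AAN against sham (x axis), of the other pathway genes (rows, by list), with 1 standard error on the deposited values (points) and after rescaling by the median of ratios (crosses). Colour gives the call on the deposited values, red for higher and blue for lower past both limits. *Slc34a2* at 4.04 and *Lrp2* at -1.87 are the extremes, and the crosses lie to the left of the points.

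Markers of some cell types of the cortex passed both limits on the deposited values, and those of others mostly did not. Over all genes tested, 35.8% were higher and 3.43% lower, with a median log2 fold change of 0.75. The medians of the thick limb (-0.22), distal convoluted tubule (-0.07), collecting duct (-0.42), podocyte (0.44) and endothelium (0.21) lists were all below that. The marker lists were not examined after rescaling. Of 12 proximal tubule markers, 9 were lower and none higher, and their summed level was 20584 to 36205 FPKM in sham mice and 1043 to 2822 FPKM in AAN mice, *Kap* being the most abundant. The median log2 fold change of that list was -2.37, against -1.68 for *Slc34a1*, -1.29 for *Slc34a3* and -0.87 for *Pth1r*, whose products are known to sit in that segment. Of 7 distal convoluted tubule markers 1 was lower and none higher by limma, with 1 lower and 2 higher at an unadjusted p under 0.05. Their summed level was 171 to 502 FPKM in sham mice, 130.2 to 204 FPKM in 5 AAN mice and 658 FPKM in B614, with *Slc12a3* the most abundant. Of 6 thick limb markers 1 was lower, with sums of 486 to 1691 and 213 to 1963 FPKM (led by *Umod*). Of 9 collecting duct markers 1 was lower, with sums of 199 to 276 and 104 to 332 FPKM (led by *Aqp2*). The injured tubule list was higher in 7 of 7 genes, from sums of 146 to 241 FPKM to sums of 1419 to 3609 FPKM, led by *Spp1*.

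All 8 leukocyte and macrophage markers (sums of 103 to 143 and 1704 to 4871 FPKM, led by *Cd74*), all 7 T cell markers (1.31 to 4.88 and 95.03 to 251 FPKM, led by *Trac*) and all 7 fibroblast markers (16.2 to 22.2 and 116 to 263 FPKM, led by *Col1a1*) were higher. Of 5 podocyte markers 1 was higher, with sums of 43.1 to 83.7 and 47.5 to 126 FPKM, led by *Podxl*. None of 6 endothelial markers passed by limma, though 2 were higher at an unadjusted p under 0.05, with sums of 26.9 to 46.0 and 40.5 to 58.4 FPKM, led by *Cdh5*. No marker of any list was at 0 in all sham mice, a low bar that does not show how far each cell type was represented in the control tissue. The part of these markers in the changes of the 10 genes was not tested beyond the within-mouse differences above.

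The genes whose course over the 10 mice was nearest to that of *Kl* were *Mgam*, *Galnt11* and *Aldh4a1*. Likeness was the root mean square difference of log2(FPKM + 0.1), each gene centred on its mean, over 12241 genes whose mean was 1 FPKM or more. It was 0.17, 0.17 and 0.19 for these 3 genes, where the median over all genes compared was 1.24. For *Slc34a1* the nearest were *Cryzl2* (0.15), *Sord* (0.16) and *Aldh9a1* (0.17), against a median of 1.31. For *Cyp24a1* the nearest were *Igfbp1* (0.57), *Nr1d1* (0.68) and *Layn* (0.70), against a median of 1.25, so no gene followed *Cyp24a1* as closely as those named followed *Kl* or *Slc34a1*. These values describe 10 mice that share their groups and the length pattern of B607 and B614.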

How the data were processed

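RNA from the cortex of kidney of 4 sham mice and 6 AAN mice was sequenced as paired-end TruSeq libraries on the HiSeq Xten. The authors filtered the reads, mapped them to GRCm38.p4 with Hisat2, computed FPKM with StringTie and deposited these FPKM per gene and mouse. The submitters' processing notes also name mm10 and edgeR. The annotation release and the use of strand are not given in the sources used here. Since no counts were at hand, limma 3.58.1 in R 4.3.3 (eBayes with trend and robust, two-sided) replaced the authors' edgeR, on log2(FPKM + 0.1) for 17129 genes whose mean reached 0.1 FPKM, with Benjamini-Hochberg adjustment and the study's limits (adjusted p of at most 0.05, and 2-fold or more up or down). Fold changes on this scale understate those of low genes. Whether mice shared a cage, litter or batch is not given in the labels, which name no batch.

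GENCODE mouse release M21 gave symbols for 21650 of 21792 genes, and positions and lengths. Depth was recovered from values under 0.3 FPKM of 5592 genes with 1 transcript, 94.5% to 96.8% of which were whole fragments within 0.05. Single values were tested with an exact permutation test. Other tools were scipy 1.17.1, pandas 2.3.3, numpy 2.4.6 and matplotlib 3.10.9 under Python 3.11.15. On simulated data 93.0% of 200 changed genes were found, with 5 false calls among 15173 genes. How far these values carry over to the measured libraries was not tested. Those libraries have a shift of the median of all genes, the length pattern of B607 and B614, and changes near the 2-fold limit.

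The members, the pathway lists and the marker lists (proximal tubule, thick limb, distal convoluted tubule, collecting duct, injured tubule, podocyte, endothelium, fibroblast, leukocyte and macrophage, T cell) were chosen with earlier results of these data known. All 10 members are given in full. Of the pathway lists, genes past both limits are named, with values for up to 3 per list whose mean reached 1 FPKM in the higher group. Other pathway genes are named by list only, with values for a few that were chosen after their values were seen. The 3 nearest genes are named for *Kl*, *Slc34a1* and *Cyp24a1*. The alternatives were a pseudocount of 0.01 or 1, a filter at 1 FPKM or none, median-of-ratios, quantile and same-total scaling, limma without trend or robust, no fold limit, list medians, each mouse left out and the B-tagged mice alone. The fit without both B607 and B614 was added after seeing the data.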

Additional observations from a re-analysis of the deposited data

Results flagged for a closer look

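In 14 of 56 groups of values, 1 mouse lay far from the others of its group by Dixon's criterion, where chance flags about 1 in 20 groups, or 2.8 of these, and the groups are not independent because they share mice. AAN B614 was the mouse in 11 of them. In B614 *Kl* was at 89.0 FPKM (the other AAN mice 16.0 to 24.7), *Vdr* at 53.8 FPKM (17.4 to 22.8), *Cyp24a1* at 56.0 FPKM (9.19 to 22.1), *Pth1r* at 99.1 FPKM (46.5 to 63.0), *Slc34a1* at 1487 FPKM (390.2 to 708) and *Slc34a3* at 21.6 FPKM (7.11 to 10.2). In the same mouse the 5 summed phosphate transporter genes were at 1536 FPKM (427 to 744), the summed thick limb list at 1963 FPKM (213 to 542), the distal convoluted tubule list at 658 FPKM (130.2 to 204) and the collecting duct list at 332 FPKM (104 to 186). Its log2 difference of *Slc9a3r1* and *Slc34a1* was -3.45 (-1.80 to -1.61 in the others). B614 also carried the transcript length pattern. Without being flagged, it was the lowest AAN mouse in the summed injured tubule list (1419 FPKM, the others 2017 to 3609) and fibroblast list (116 FPKM, 173 to 263). The same held for the leukocyte and macrophage list (1704 FPKM, 2078 to 4871) and the T cell list (95.03 FPKM, 118 to 251). The part of the length pattern or of these lists in the flagged values was not tested.

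Of the sham mice, B636 had 4.04 FPKM of *Slc20a1* (3.29 to 3.34 in the others). B634 had a summed leukocyte and macrophage list of 103 FPKM (137 to 143) and a log2 difference of *Slc34a1* and the proximal tubule list of 2.59 (3.10 to 3.16).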

How the results depend on the processing

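The direction of the 5 called members held under all 20 alternatives run for each. Scaling moved counts of calls: the members called higher were 1 after the median of ratios and 1 after quantile normalization, and those called lower 6 after the median of ratios. Pathway genes called higher were 7 and 6 under these 2 scalings, and those called lower 7 and 7. *Slc20a2* turned to -0.078 after the median of ratios, *Slc34a1* minus *Slc34a3* to 0.095 after quantile normalization, and *Slc34a1* minus the proximal tubule list to -0.029 with the list median. *Kl* minus the distal convoluted tubule list lost its call at -0.47 (quantile normalization), -0.018 (list median), -0.70 (B-tagged mice) and -0.75 (without both B607 and B614). With B tags alone *Slc34a1* and *Pth1r* minus the proximal tubule list were 0.70 and 1.48, each with an exact adjusted p of 0.0625 over fewer splits. *Slc9a3r1* minus *Slc34a1* gained a call without both B607 and B614 (1.54, exact adjusted p = 0.0417). The cause was not tested in these cases.

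Leaving out 1 mouse at a time gave -0.85 to -0.64 for *Kl* minus its list, 0.55 to 0.77 for *Slc34a1* and 1.41 to 1.62 for *Pth1r* minus theirs, 1.25 to 1.69 for *Slc9a3r1* minus *Slc34a1*, and 0.093 to 1.597 for *Cyp24a1* minus *Cyp27b1*. The call was lost in each of the 3 list comparisons without sham B634 or AAN A483, B639 or B666, and for *Kl* also without sham B607, B636 or H249. The exact adjusted p-values in these runs were 0.0556 to 0.0833. All 3 comparisons kept the call without AAN B614, B630 or B642, at exact adjusted p-values of 0.0278 to 0.037. With 1 mouse left out, the changes of single members spanned -1.64 to -0.995 for *Kl*, -1.95 to -1.51 for *Slc34a1*, -1.51 to -1.19 for *Slc34a3*, 1.73 to 2.59 for *Cyp24a1*, 1.42 to 1.63 for *Slc20a1* and 0.60 to 1.67 for *Cyp27b1*. Members called were 2 to 3 higher (3 without B634 or B636) and 2 to 4 lower (4 without B634 or B614), and pathway genes 12 to 19 higher (19 without sham B607) and 3 to 5 lower. Of 8 gained and 9 lost calls of single genes, those of *Kl*, *Cyp27b1*, *Pth1r*, *Vdr*, *Slc20a1* and *Slc9a3r1* are given with the genes. No paired analysis was possible because no tag or number links a sham mouse with an AAN mouse. The standard errors of the members ran from 0.19 for *Slc9a3r1* and *Slc20a1* to 0.55 for *Cyp24a1*, with 4 and 6 mice and no counts.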
